A study of Mus musculus with 33 samples.

Results

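Tdo2 and 7 other genes used as markers of dentate granule cells were examined in the mouse hippocampus: Prox1, Dsp, C1ql2, Calb1, Lct, Trpc6 and Neurod1. The members were fixed by name with earlier results of these data known, and are 8 of the 18193 genes named singly on the array. Every probe set annotated to exactly 1 of these 8 genes was taken, which gave 18 of the 45037 probe sets that are not controls. A probe set is a group of short oligonucleotides that together read 1 transcript. Of the 18 probe sets, 17 passed a filter on low signal, and the dimmest Tdo2 probe set (1455770_at) did not, with mean signals of 6.87, 5.25 and 5.57 in the 3 groups.

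Granule cells are the principal neurons of the dentate gyrus, the hippocampal field that receives the main input from the entorhinal cortex and passes it on to CA3 through the mossy fibres. They are among the few neurons of the adult mouse brain that are still generated, and their maturation is followed by a known order of marker genes. Tdo2 encodes tryptophan 2,3-dioxygenase, which opens the indole ring of tryptophan at the entry to the kynurenine pathway. It is best known from liver, where glucocorticoids induce it, and in the mouse brain its transcript is a marker of mature granule cells. Several other members are not restricted to granule cells: Calb1 is also made by CA1 pyramidal cells and interneurons, and Prox1 by a class of interneurons.

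RNA came from the right hippocampus of 33 male mice, 1 Affymetrix MOE430 2.0 array per animal. All animals were 20 weeks old, were bred on an SJL × C57BL/6J background and were dosed by oral gavage with the same carrier, Tween 80 in sodium carboxymethylcellulose. The 11 wild-type vehicle animals were littermates without the transgene, and the 11 Tg2576 vehicle animals were heterozygous for human APP carrying the Swedish mutation of familial Alzheimer's disease, expressed from the prion promoter and therefore not restricted to 1 neuron type. The 11 Tg2576 TO901317 animals carried the same transgene and received 50 mg per kg per day of TO901317, a synthetic compound that activates liver X receptors, nuclear receptors of cholesterol homeostasis, for 7 days by one label and 5 days by another. The animals were killed 1 hour after the last dose, and no wild-type animals given TO901317 are among the 33 arrays. Precision is limited by the 11 arrays in each group.

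The array medians lay between 19.5 and 28.9 in units of signal, and pairs of arrays correlated at 0.956 to 0.987. Tg2576 vehicle replicates 3 and 4 stood apart in a gauge of RNA integrity, the log2 ratio between the signals of the 3' and 5' ends of Gapdh, which was 0.11 and 0.08 in these animals and at most -0.08 on the other arrays. The differences that rest on the Tg2576 vehicle group are given also without these 2 animals after the accounts of the members. Granule cell genes were read on every array: 7 further ones (C1ql3, Dock10, Stxbp6, Glis3, Plk5, Ablim3 and Smad3) had mean signals above the low-signal limit of 13.9, and their summed signal lay between 2082 and 2979 on all arrays. Choroid plexus genes varied far more, with sums of 308 to 9069 in wild-type vehicle, 155 to 6817 in Tg2576 vehicle and 892 to 8236 in Tg2576 TO901317. Their part in the group differences of the members was not tested.

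The promoters of Tdo2, Dsp and Lct are shown because these members had the largest differences between Tg2576 vehicle and wild-type vehicle. Each window holds 250 bases before and 50 bases after the gene's start as annotated by RefSeq in GRCm38.p6, read 5′ to 3′ on the gene's own strand. Capitals mark a match to the letters TATAAA in Tdo2 and matches to the E-box (CANNTG, the core sequence read by basic helix-loop-helix factors such as the protein of Neurod1) in Dsp and Lct. Tdo2 lies at chr3:81975679-81975978 on the minus strand, Dsp at chr13:38151044-38151343 on the plus strand and Lct at chr1:128328269-128328568 on the minus strand.
Tdo2: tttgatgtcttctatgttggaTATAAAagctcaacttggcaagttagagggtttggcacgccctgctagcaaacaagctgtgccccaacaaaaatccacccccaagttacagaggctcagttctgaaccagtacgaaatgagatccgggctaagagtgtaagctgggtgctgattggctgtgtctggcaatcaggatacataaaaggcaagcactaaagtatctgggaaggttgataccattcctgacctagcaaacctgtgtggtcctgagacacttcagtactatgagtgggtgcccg
Dsp: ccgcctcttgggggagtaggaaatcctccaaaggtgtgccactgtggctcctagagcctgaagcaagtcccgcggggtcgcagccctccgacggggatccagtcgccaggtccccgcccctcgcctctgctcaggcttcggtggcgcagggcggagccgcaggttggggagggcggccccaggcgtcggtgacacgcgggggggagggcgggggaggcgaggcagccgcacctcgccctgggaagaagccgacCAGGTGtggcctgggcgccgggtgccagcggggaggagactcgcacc
Lct: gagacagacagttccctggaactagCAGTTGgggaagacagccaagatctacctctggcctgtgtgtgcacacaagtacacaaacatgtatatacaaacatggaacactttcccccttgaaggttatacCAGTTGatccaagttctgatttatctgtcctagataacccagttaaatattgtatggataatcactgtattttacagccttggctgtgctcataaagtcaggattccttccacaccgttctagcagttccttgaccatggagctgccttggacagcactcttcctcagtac

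Of the 8 members, 7 matched the promoter table, with 8 windows in all because Prox1 had 2. The motifs were searched on both strands. The Tdo2 window held no CANNTG and 1 TATAAA, 229 bases before the start. The Dsp window held 1 CANNTG, 3 bases after the start, and the Lct window held 2, at 225 and 121 bases before it. In all, 5 of the 8 windows held a CANNTG, a motif present in 72.3% of 32851 mouse promoter windows of the same length. Of the other motifs, CAGATG, itself a CANNTG, was in 1 window (Prox1; 17.2% of all windows), CAGCTG in 0 of 8 (16.3%), TATAAA in 2 (Tdo2 and Prox1; 13.6%) and the glucocorticoid half-site AGAACA in 0 of 8 (19.0%).

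Tdo2 was the only member with a probe set that passed between Tg2576 vehicle and wild-type vehicle. Its signal in probe set 1419093_at ran from 50.2 through a median of 74.1 to 102 in wild-type vehicle, from 15.6 through 33.3 to 65.7 in Tg2576 vehicle, and from 32.3 through 56.5 to 74.4 in Tg2576 TO901317. The Tg2576 vehicle animals were the lowest group: 9 of 11 read below the lowest wild-type animal and all 11 below the wild-type median, although the ranges overlapped. The mean signals were 73.2 ± 15.4, 37.3 ± 14.7 and 52.1 ± 14.0 (SD, n = 11 each). On the log2(signal + 16) scale Tdo2 fell by 0.77 in Tg2576 vehicle relative to wild-type vehicle (SE 0.13, 1.71-fold), with an adjusted p of 0.00202 from limma over 27022 probe sets, which ranked 11 by p.

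The treated animals lay between the other groups. The log2 difference of Tdo2 from Tg2576 vehicle was 0.37 (95% interval 0.11 to 0.64), with 10 of 11 treated animals above the Tg2576 vehicle median, and did not pass (limma, unadjusted p = 0.00681, adjusted p = 0.270). The difference from wild-type vehicle was -0.40 (95% interval -0.66 to -0.13), with 10 of 11 treated animals below the wild-type median, and did not pass either (adjusted p = 0.301). These comparisons share animals with the first, the Tg2576 vehicle and the wild-type vehicle arrays respectively. In bulk tissue, fewer granule cells and less Tdo2 RNA per granule cell cannot be told apart.

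The fall of Tdo2 rested on 1 probe set. A second probe set, 1449337_at, is annotated to the same source sequence but was dim, with means of 19.5 ± 3.91, 18.8 ± 6.73 and 16.9 ± 3.51 (SD, n = 11 each) in the same order of groups, and the groups overlapped throughout. Its log2 differences were -0.04 for Tg2576 vehicle minus wild-type vehicle (95% interval -0.23 to 0.14), -0.07 for Tg2576 TO901317 minus Tg2576 vehicle and -0.11 for Tg2576 TO901317 minus wild-type vehicle, and none passed. Within groups the 2 probe sets correlated at r = 0.35 over 33 arrays (Spearman's rho 0.39, permutation p = 0.0769 and 0.0352, adjusted 0.103 and 0.0564 over 16 pairs of probe sets of 1 gene). The average of the log2 values of both was lower in Tg2576 vehicle than in wild-type vehicle by 0.41 (adjusted p = 0.0368 by limma). This average contains 1419093_at and is no separate reading of the fall. Without Tg2576 vehicle replicates 3 and 4 the difference of 1419093_at was -0.83 (adjusted p = 0.00158).

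**Figure D1:**
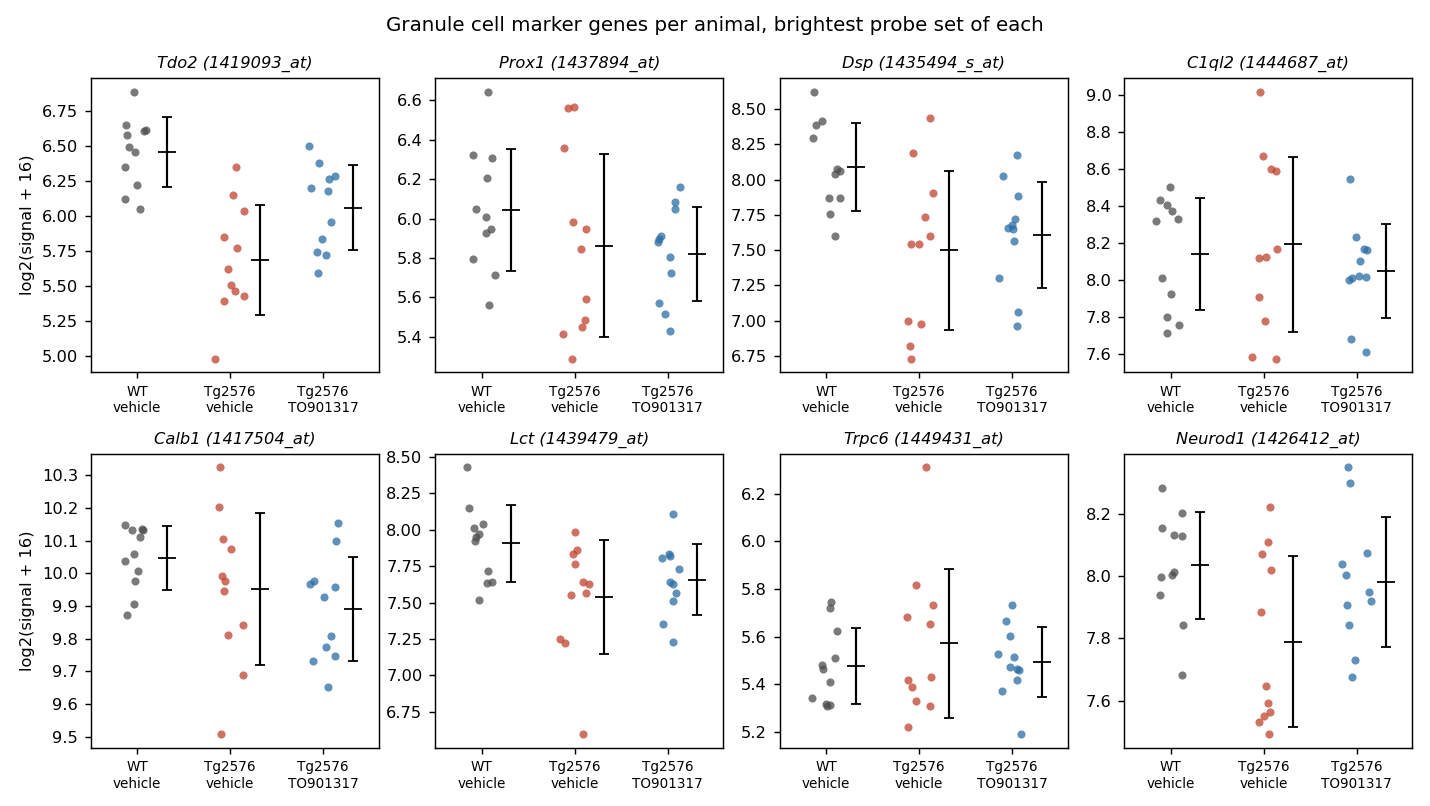
Signal of the brightest probe set of each of the 8 genes on the log2(signal + 16) scale, 1 point per animal and 11 animals per group, with the group mean and SD beside the points. For Tdo2, 9 of 11 Tg2576 vehicle animals lie below the lowest wild-type animal, and for every gene the ranges of the groups overlap.

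Prox1 and Neurod1 are the transcription factors among the members. Prox1 encodes a homeodomain protein that specifies and maintains granule cell identity, and Neurod1 a basic helix-loop-helix factor needed for granule cells to differentiate and survive. Neither passed in any comparison. The brightest Neurod1 probe set, 1426412_at, ran from 190 through a median of 242 to 295 in wild-type vehicle, from 164 through 184 to 282 in Tg2576 vehicle and from 189 through 231 to 309.7 in Tg2576 TO901317. In Tg2576 vehicle 6 of 11 animals read below the lowest wild-type animal and the others within the wild-type range, and all 11 treated animals read above the Tg2576 vehicle median. The log2 difference was -0.24 for Tg2576 vehicle minus wild-type vehicle (SE 0.09, unadjusted p = 0.0100, adjusted p = 0.329 by limma), 0.19 for Tg2576 TO901317 minus Tg2576 vehicle (adjusted p = 0.448) and -0.05 for Tg2576 TO901317 minus wild-type vehicle (adjusted p = 0.945). The second Neurod1 probe set, 1426413_at, had differences of the same signs, at -0.22, 0.13 and -0.09.

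Prox1 was read by 3 probe sets. The brightest, 1437894_at, had means of 51.4 ± 15.0 in wild-type vehicle, 45.1 ± 20.7 in Tg2576 vehicle and 41.2 ± 9.26 in Tg2576 TO901317 (SD, n = 11 each). The groups overlapped, and the log2 difference between Tg2576 vehicle and wild-type vehicle was -0.18 (95% interval -0.47 to 0.11, adjusted p = 0.734). The drug difference within Tg2576 depended on the probe set: it was -0.04 in 1437894_at, 0.19 in 1421336_at and 0.38 in the dim 1457432_at (adjusted p = 0.948, 0.502 and 0.325). The signal of 1457432_at was 17.7 ± 10.0 in wild-type vehicle, 10.8 ± 4.65 in Tg2576 vehicle and 19.3 ± 8.78 in Tg2576 TO901317, and all 11 treated animals read above the Tg2576 vehicle median. As the mean of its probe sets, Prox1 had a drug difference of 0.18, opposite in sign to that of the brightest one, with an adjusted p of 0.522.

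Dsp had the second-largest genotype difference after Tdo2. It encodes desmoplakin, the plaque protein that links desmosomal cadherins to intermediate filaments in epithelia and heart, and in the mouse brain its transcript marks the dentate gyrus. Signals of probe set 1435494_s_at ran from 178 through a median of 251 to 378 in wild-type vehicle, from 90.2 through 171 to 331 in Tg2576 vehicle and from 109 through 186 to 273 in Tg2576 TO901317. In Tg2576 vehicle 6 of 11 animals lay below the lowest wild-type animal while the others reached well into the wild-type range. The log2 difference was -0.59 (SE 0.18, 95% interval -0.95 to -0.23) and did not pass (unadjusted p = 0.00201, adjusted p = 0.192 by limma).

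A second bright Dsp probe set of the same source sequence, 1435493_at, differed by -0.61 between these groups (unadjusted p = 0.000955, adjusted p = 0.153). The dim remaining one, 1427610_at, differed by -0.12 (adjusted p = 0.857), and by 0.01 without Tg2576 vehicle replicates 3 and 4. In 1435494_s_at Dsp had a drug difference within Tg2576 of 0.11 (95% interval -0.25 to 0.47) and a difference of -0.48 between Tg2576 TO901317 and wild-type vehicle (adjusted p = 0.387). Whether the drug difference of Tdo2 differs from that of Dsp was not tested.

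C1ql2 encodes a secreted C1q-like protein that mossy fibres release at their synapses on CA3 cells, where it clusters kainate-type glutamate receptors. Its only probe set, 1444687_at, ran from 193 through a median of 304 to 347 in wild-type vehicle, from 174 through 263 to 503 in Tg2576 vehicle and from 179 through 244 to 359 in Tg2576 TO901317. The Tg2576 vehicle animals spanned more than the range of wild-type animals, with 2 below its lowest value and 4 above its highest. The log2 difference was 0.05 for Tg2576 vehicle minus wild-type vehicle (95% interval -0.25 to 0.35, adjusted p = 0.948) and turned to -0.03 without Tg2576 vehicle replicate 2, the highest animal. It was -0.14 for Tg2576 TO901317 minus Tg2576 vehicle and -0.09 for Tg2576 TO901317 minus wild-type vehicle, and neither passed.

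Calb1 encodes calbindin, the calcium-buffering protein whose appearance marks mature granule cells. All 4 of its probe sets had negative log2 differences in all 3 comparisons, and none passed. The brightest, 1417504_at, ran from 922 through a median of 1051 to 1118 in wild-type vehicle, from 712 through 992 to 1265 in Tg2576 vehicle and from 789.5 through 958 to 1124 in Tg2576 TO901317. The wild-type animals were tightly grouped. In Tg2576 vehicle 4 of 11 animals lay below the lowest wild-type animal and 2 above the highest. In Tg2576 TO901317 5 of 11 lay below the lowest and 1 above the highest, and 9 of 11 were below the wild-type median. The log2 difference was -0.10 for Tg2576 vehicle minus wild-type vehicle (adjusted p = 0.703), -0.06 for Tg2576 TO901317 minus Tg2576 vehicle (adjusted p = 0.814) and -0.16 for Tg2576 TO901317 minus wild-type vehicle (unadjusted p = 0.0321, adjusted p = 0.542). The widest difference of the gene was in 1456934_at, at -0.33 for Tg2576 TO901317 minus wild-type vehicle, with 8 of 11 treated animals below the lowest wild-type animal (unadjusted p = 0.00686, adjusted p = 0.351).

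Lct encodes lactase, the enzyme that splits milk sugar in the intestine, and its transcript is found in granule cells of the mouse dentate gyrus. Signals of 1439479_at ran from 168 through a median of 232 to 328 in wild-type vehicle, from 80.6 through 181 to 238 in Tg2576 vehicle and from 134 through 183 to 261 in Tg2576 TO901317. In Tg2576 vehicle 10 of 11 animals read below the wild-type median, and replicate 4, one of the animals that stood apart in RNA quality, was the lowest. The log2 difference was -0.37 for Tg2576 vehicle minus wild-type vehicle (unadjusted p = 0.00495, adjusted p = 0.266 by limma), 0.12 for Tg2576 TO901317 minus Tg2576 vehicle and -0.25 for Tg2576 TO901317 minus wild-type vehicle, none of which passed.

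Trpc6 encodes a cation channel opened by diacylglycerol, and it was dim. Its means in 1449431_at were 28.8 ± 5.11 in wild-type vehicle, 32.7 ± 11.9 in Tg2576 vehicle and 29.2 ± 4.54 in Tg2576 TO901317 (SD, n = 11 each). The groups overlapped, and Tg2576 vehicle replicate 1, at 63.4, was the highest animal of all. The log2 differences were 0.10, -0.08 and 0.02 in the same order of comparisons, and none passed.

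**Figure D2:**
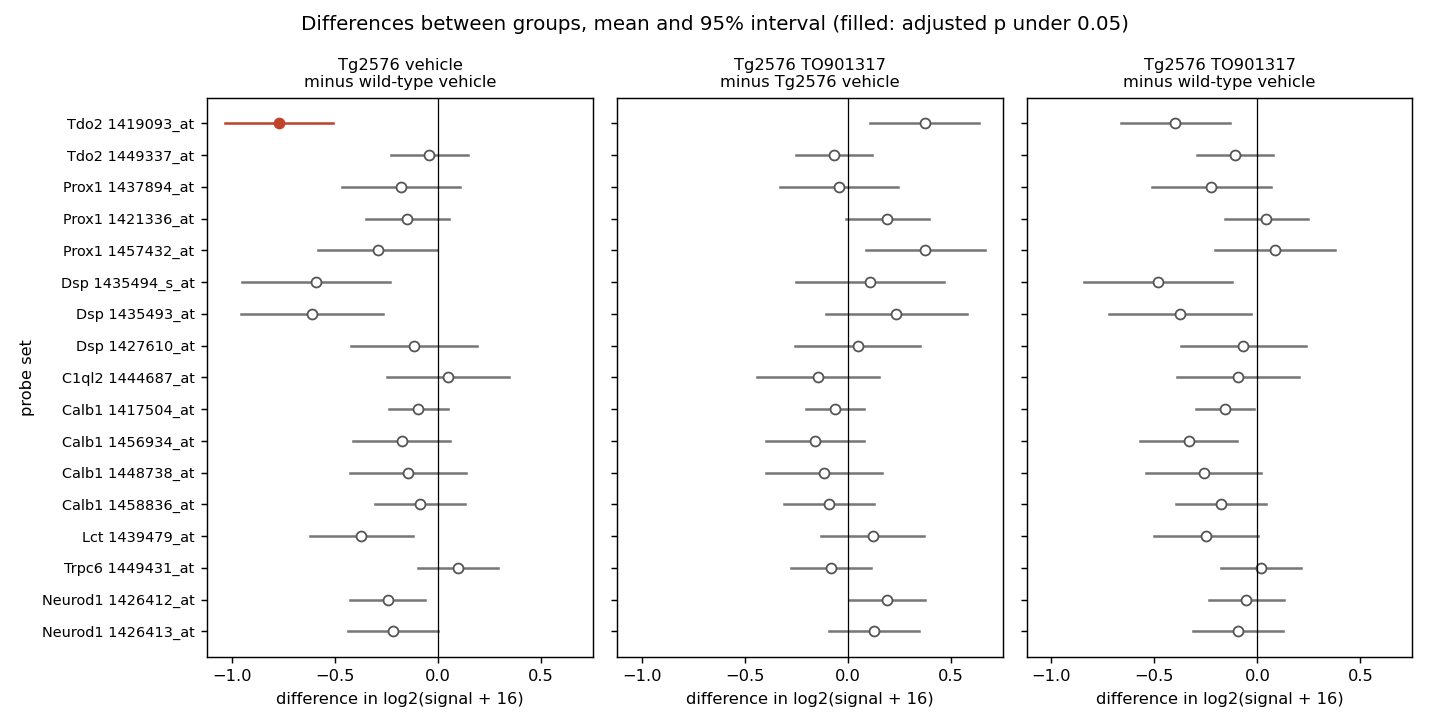
Difference between group means in log2(signal + 16), with its 95% interval, for the 17 member probe sets that passed the filter, 1 panel per comparison. The filled symbol is the only one with an adjusted p below 0.05, Tdo2 1419093_at in Tg2576 vehicle minus wild-type vehicle, and the 4 Calb1 probe sets lie left of 0 in each panel.

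Without Tg2576 vehicle replicates 3 and 4 no call among the members changed, and several differences that did not pass moved. For Tg2576 vehicle minus wild-type vehicle the brightest probe sets then stood at -0.55 for Dsp, -0.30 for Neurod1, -0.29 for Lct, -0.15 for Calb1, -0.10 for Prox1, 0.09 for C1ql2 and 0.12 for Trpc6. Relative to the values with all arrays, Dsp, Lct and Prox1 came nearer to 0, and Neurod1, Calb1, C1ql2 and Trpc6 moved away from it. For Tg2576 TO901317 minus Tg2576 vehicle they stood at 0.43 for Tdo2, 0.25 for Neurod1, 0.07 for Dsp, 0.0424 for Lct, -0.0024 for Calb1, -0.10 for Trpc6, -0.12 for Prox1 and -0.18 for C1ql2, none of which passed (smallest adjusted p = 0.259, for Tdo2).

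Over the 17 probe sets, 1 passed in Tg2576 vehicle minus wild-type vehicle, where 0.159% of all probe sets passed (43 of 27022). In that comparison 15 of 17 differences were below 0, with a median of -0.18 against 0.00 over all probe sets tested, and 6 of 17 had an unadjusted p below 0.05, all of them lower (4.77% of all probe sets were lower at that limit). The 6 were from Tdo2, Dsp, Lct, Neurod1 and Prox1, with 2 from Dsp. Prox1 entered only through its dim probe set 1457432_at, at -0.29 (limma, unadjusted p = 0.0480). The brighter Prox1 probe sets 1437894_at and 1421336_at stood at -0.18 and -0.15 (limma, unadjusted p = 0.213 and 0.146). None of the 17 separated the groups without overlap, which 0.0259% of all probe sets did. As the members were chosen with earlier results of these data known, the counts here and in the next paragraph do not test the set.

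The drug comparison within Tg2576 gave no call among the members. Of 17 probe sets, 0 passed (limma), against 0.141% of all probe sets (38), and 3 had an unadjusted p below 0.05: Tdo2 1419093_at, Prox1 1457432_at and Neurod1 1426412_at, all higher with the drug (5.67% of all probe sets were higher at that limit). Differences below 0 were found in 8 of 17, and the median was 0.05, against 0.00 over all. For Tg2576 TO901317 minus wild-type vehicle 0 of 17 passed (0.144% of all, 39), 14 of 17 were below 0 with a median of -0.16 against 0.01 over all, and 5 had an unadjusted p below 0.05, all lower (4.01% of all). No probe set separated the groups in these comparisons either, against 0.0074% and 0.0148% of all probe sets. The probe sets of a gene share its transcript, and all members were read on the same arrays, so they are not independent of each other.

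By animal, each of the 11 Tg2576 vehicle animals and each of the 11 Tg2576 TO901317 animals had a mean log2 deviation over the 8 members below the wild-type average, from -0.48 to -0.01 and from -0.41 to -0.01, where the wild-type animals ranged from -0.23 to 0.18. These means describe the arrays and carry no test. Single genes did not follow this uniformly: of the 8 members, between 3 and 8 were below the wild-type mean in each Tg2576 vehicle animal and likewise between 3 and 8 in each treated animal. Tg2576 vehicle replicate 5 had only 3 members below it (Prox1 at -0.56, Tdo2 at -0.42 and Calb1 at -0.10), and replicates 6 and 9 had all 8. A wide deviation of a single member can thus place the mean of an animal below 0.

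Animals of the Tg2576 vehicle group differed from each other more than animals of the other groups in the brightest probe set of all 8 members. The SD on the log2 scale was 1.48 to 2.40 times that of wild-type vehicle, with a median of 1.58. The widest were Calb1 (0.23 against 0.10), Trpc6 (0.31 against 0.16) and Dsp (0.56 against 0.31). Over all 27022 probe sets the median ratio was 1.10, 49.2% had their highest SD in Tg2576 vehicle, and 15.9% had a ratio at or above the members' median. Treated Tg2576 animals had a median ratio to wild-type of 1.07 over the members and 0.93 over all probe sets. Without Tg2576 vehicle replicates 3 and 4 the highest SD was still in Tg2576 vehicle for 7 of 8 members, with a median ratio to wild-type of 1.65, while Lct had a ratio of 0.98. Over all member probe sets past the filter the highest SD was in Tg2576 vehicle in 13 of 17, and in 12 of 17 without these 2 animals. These ratios are a description of the arrays and carry no test.

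**Figure D3:**
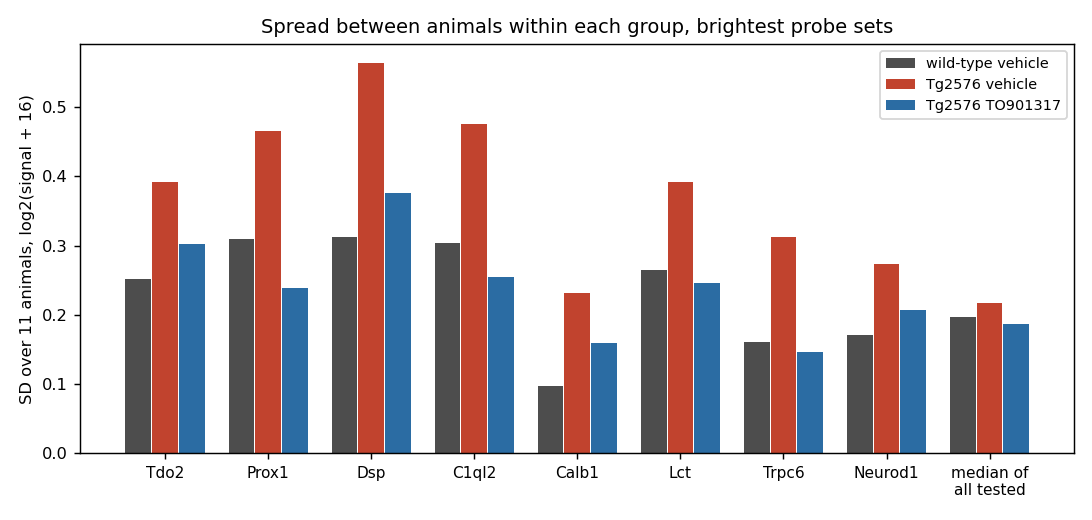
SD over 11 animals of log2(signal + 16) in each group, for the brightest probe set of each gene and for the median of all 27022 probe sets tested. The Tg2576 vehicle bar is the tallest for all 8 genes, whereas the bars for all probe sets are nearly level.

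Over 33 arrays with group means removed, the 28 pairs of members had a median r of 0.15, 17 were above 0, and none passed after adjustment over the 28 (smallest adjusted p = 0.215, permutation within groups). By the brightest probe sets Tdo2 was closest to Dsp, at r = 0.45 (Spearman's rho 0.50, permutation p = 0.0170 and 0.0052, adjusted 0.215 and 0.138). Without the 2 arrays farthest from the Tdo2 median, the r of Tdo2 was 0.48 with Dsp and 0.52 with Calb1. Over all arrays the second bright Dsp probe set, 1435493_at, had an r of 0.29 with Tdo2, below the Calb1 probe sets (0.31 to 0.41). By group the correlation of Tdo2 with Dsp was 0.83 in wild-type vehicle, 0.23 in Tg2576 vehicle and 0.63 in Tg2576 TO901317 (n = 11 each, permutation p = 0.0018, 0.487 and 0.0387, none passing over 84 pairs, smallest adjusted p = 0.151). Whether these values differ between groups was not tested.

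Tdo2 correlated at 0.36 with Calb1 (rho 0.47), at 0.34 with Neurod1, at 0.24 with Lct and at 0.05 with Trpc6. With Prox1 and C1ql2 the values were -0.10 and -0.21, and none of these 6 pairs passed either. The highest value of any pair was that of Dsp with Lct, at 0.49 (rho 0.43, permutation p = 0.00802, adjusted 0.215). The lowest was that of Prox1 with Neurod1, at -0.44 (rho -0.43, permutation p = 0.0230, adjusted 0.215), and it was -0.74 in wild-type vehicle and -0.60 in Tg2576 vehicle and 0.24 in Tg2576 TO901317 (n = 11 each, none passing over 84 pairs). The difference between these groups was not tested.

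Probe sets of 1 gene were compared in the same way, as a scale for these values. The 2 brightest probe sets of Prox1 correlated at r = 0.75, those of Calb1 at 0.75, those of Dsp at 0.61 and those of Neurod1 at 0.43 (n = 33, permutation, adjusted p = 0.00016, 0.00016, 0.00203 and 0.0251 over 16 pairs). The pair of Tdo2 was the weakest of these, at 0.35.

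**Figure D4:**
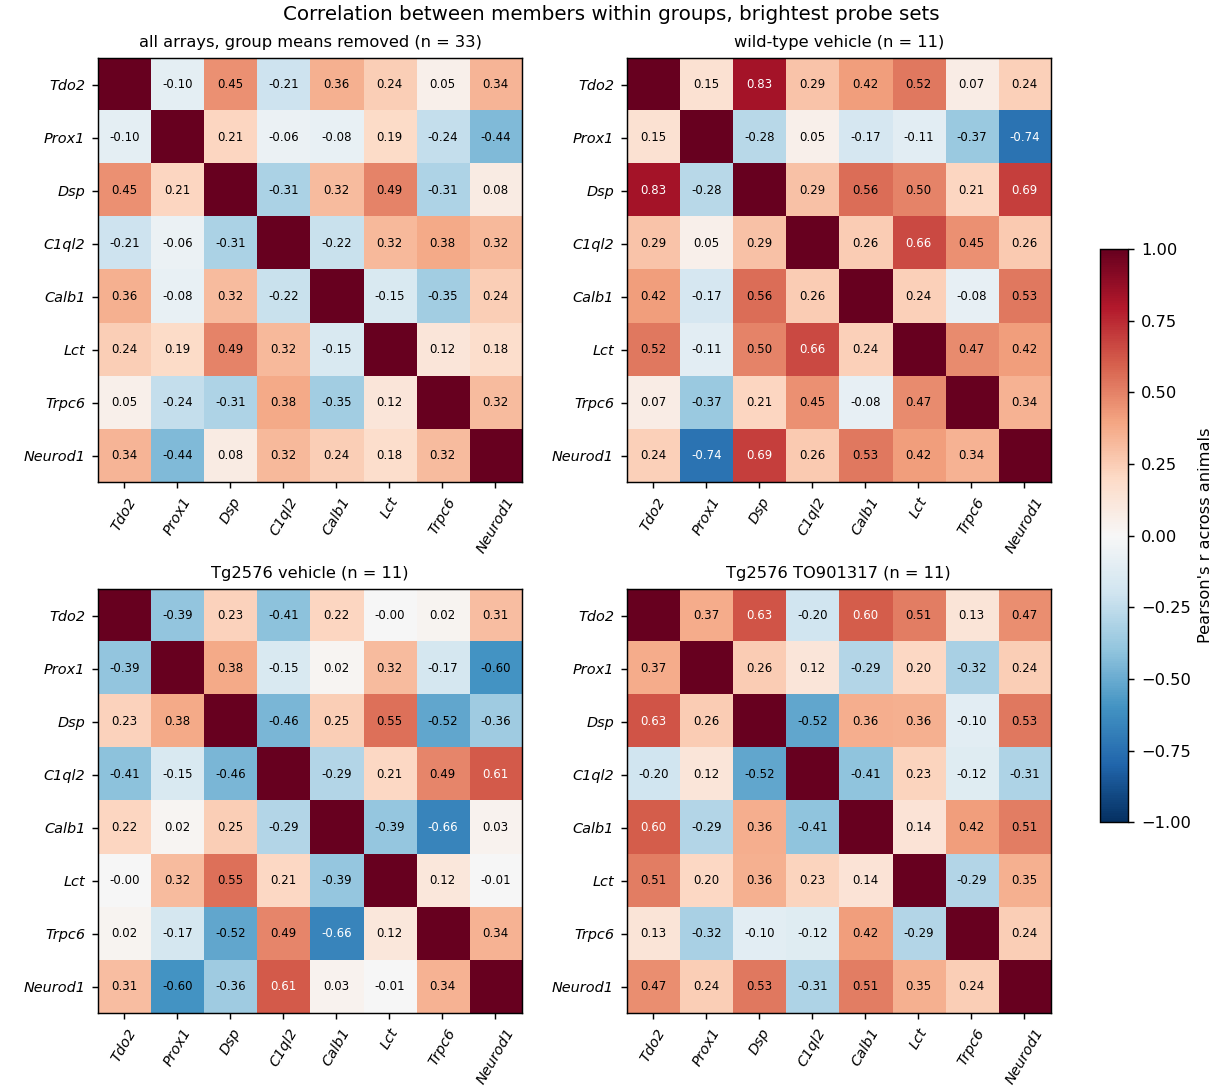
Pearson's r between the brightest probe sets of the 8 genes across animals, over all 33 arrays with group means removed and within each group of 11. Tdo2 with Dsp stands at 0.83 in wild-type vehicle and 0.23 in Tg2576 vehicle, and Prox1 with Neurod1 at -0.74 in wild-type vehicle.

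The genes whose within-group pattern was most like that of Tdo2 were not the other members. Among 23038 probe sets of single genes, the highest Pearson r with Tdo2 1419093_at over 33 arrays with group means removed was that of Bcl6, a transcriptional repressor, at 0.78. By group it was 0.87, 0.72 and 0.82 in wild-type vehicle, Tg2576 vehicle and Tg2576 TO901317. These arrays also gave the r by which Bcl6 was picked, so the group values are no separate reading. The next were Hs3st1 (0.69), Smarcd2 (0.68), Pip5k1b (0.67), Zfp131 (0.67), Egr3 (0.66), Tmcc3 (0.65), Reps1 (0.65), Arhgef3 (0.65) and Gss (0.64), and the lowest were Kcnip3 (-0.76), Crtc1 (-0.71), Ppp1r12c (-0.71), Slc7a4 (-0.71) and Chpf2 (-0.71). Dsp stood at rank 370 in this order, Calb1 at 1207, Neurod1 at 1376, Lct at 3192, Trpc6 at 9108, Prox1 at 14932 and C1ql2 at 18362 by their brightest probe sets. Other probe sets of a member could stand elsewhere: Calb1 1448738_at was at 687, and Neurod1 1426413_at was at 16206 with an r of -0.13, opposite in sign to the 0.34 of the brightest Neurod1 probe set.

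Bcl6 did not share the genotype difference of Tdo2 to the same size. Its mean log2 difference for Tg2576 vehicle minus wild-type vehicle was -0.22 (adjusted p = 0.387) and that for Tg2576 TO901317 minus Tg2576 vehicle 0.06 (adjusted p = 0.874). None of the 15 genes named here passed in any comparison. The genes were picked from all those on the array for their r, so these values are a description and carry no test, and all points share library and array.

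**Figure D5:**
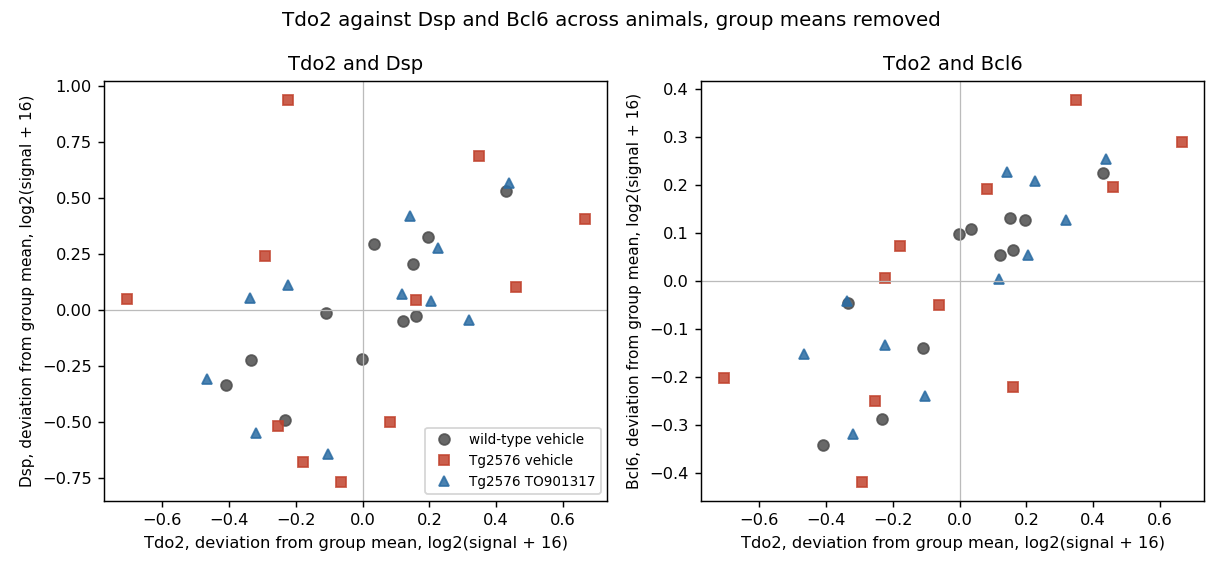
Deviation of each animal from its group mean in log2(signal + 16), for Tdo2 against Dsp and for Tdo2 against Bcl6, the gene most like it, with 33 animals in each panel. Bcl6 was picked from all genes on the array for its r with Tdo2 on these animals. Its r is 0.78, and that of Dsp is 0.45, with the Tg2576 vehicle animals widest apart.

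The averaged profile of the other 7 members was nearest to 10 genes with r of 0.71 to 0.76 among 23023 probe sets: Eif4g2, Wipf3, Dock10, Tbc1d14, Jph1, Btbd3, Actr3, Kctd4, Dock4 and Nptn. Dock10, a guanine nucleotide exchange factor from the list of further granule cell genes, was at rank 3 with 0.76, and Ablim3 and C1ql3 of the same list stood at ranks 44 and 220. The other 4 genes of the list ranked lower by their brightest probe sets, Stxbp6 at 777, Smad3 at 2451, Glis3 at 3074 and Plk5 at 8819 (r = 0.04). Dimmer probe sets of this list reached negative values, such as C1ql3 at -0.27 and -0.34 and Smad3 at -0.58, rank 22968. The lowest were Tbl1x (-0.71), Zscan22 (-0.71), Ntng1 (-0.69), Agk (-0.68) and Lgals8 (-0.68). None of these 15 genes passed in any comparison.

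The 7 further granule cell genes all had a negative difference for Tg2576 vehicle minus wild-type vehicle, with a median of -0.12, and none passed. The widest by p was Dock10 at -0.22 (unadjusted p = 0.00866, adjusted p = 0.312). They had a median of 0.04 for Tg2576 TO901317 minus Tg2576 vehicle, where Dock10 stood at 0.13, and of -0.09 for Tg2576 TO901317 minus wild-type vehicle, where all 7 were below 0 and Ablim3 had the smallest p at -0.12 (adjusted p = 0.654). Of 8 genes of immature granule cells and neurogenesis on the array, 4 were past the filter and none passed. Calb2, which young granule cells make before they switch to calbindin, differed by 0.27 for Tg2576 vehicle minus wild-type vehicle (adjusted p = 0.611), and Dcx, the microtubule protein of migrating neurons, by -0.14 for Tg2576 TO901317 minus Tg2576 vehicle (adjusted p = 0.563).

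The rest of the tryptophan and kynurenine pathway was mostly dim. Of 17 listed genes on the array 10 were below the filter, among them Ido1 and Ido2, the other enzymes that open tryptophan, and Kmo and Kynu of the later steps. The 7 tested genes were Kyat1, Kyat3, Ddc, Maoa, Maob, Slc7a5 and Slc3a2, and 0 of 7 passed in any comparison (limma). At an unadjusted p below 0.05 there were 0 in the genotype comparison and 0 between Tg2576 TO901317 and wild-type vehicle. The drug comparison had 3 at that limit, 2 higher and 1 lower, where 5.67% of all probe sets were higher. Slc7a5, a subunit of the transporter that carries tryptophan into cells, had the smallest p in the genotype comparison at -0.16 (adjusted p = 0.537). Ddc, aromatic amino acid decarboxylase, had means of 71.0 in wild-type vehicle, 59.5 in Tg2576 vehicle and 87.3 in Tg2576 TO901317, and its drug difference within Tg2576 was 0.42 (adjusted p = 0.227).

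Markers of neighbouring cells and tissues were read beside the members. In Tg2576 vehicle relative to wild-type vehicle 1 of 7 astrocyte genes passed: Slc4a4, a bicarbonate cotransporter, fell by 0.27 (adjusted p = 0.00279). Of the 7, 6 were below 0 (median of the list -0.18), 5 of them with an unadjusted p below 0.05 (4.77% of all probe sets were lower at that limit). Their summed signals were 6403 to 8332 in wild-type vehicle and 5975 to 7057 in Tg2576 vehicle. All 6 meningeal fibroblast genes were above 0 with a median of 0.49, and none passed (smallest p for Slc22a6, 0.48, adjusted p = 0.251). Their sums were 413 to 1920 in wild-type vehicle and 577 to 1995 in Tg2576 vehicle. All 4 oligodendrocyte genes were below 0 with a median of -0.22, 2 of them with an unadjusted p below 0.05 (again against 4.77% of all probe sets). None of them passed (smallest p for Mbp, -0.16, adjusted p = 0.277). No gene passed among the lists for CA1 (Man1a 0.24, adjusted p = 0.119), CA2 and CA3 (Pcp4 -0.16, adjusted p = 0.577), interneurons (Vip 0.31, adjusted p = 0.201), thalamus and habenula (Tac2 0.43, adjusted p = 0.109), striatum (Rgs9 0.14, adjusted p = 0.626), choroid plexus (Folr1 -0.26, adjusted p = 0.925), microglia (P2ry12 0.06, adjusted p = 0.853) and endothelium (Flt1 -0.25, adjusted p = 0.497). The gene named is that of smallest p and does not give the direction of its list. Below 0 were 1 of 5 genes for CA1, 6 of 8 for CA2 and CA3, and 5 of 8 for interneurons (median -0.03). The counts were 3 of 6 for thalamus and habenula (median 0.10), 0 of 3 for striatum and 4 of 6 for choroid plexus. For microglia 2 of 5 were below 0, and for endothelium 3 of 4. The part of any of these in the group differences of Tdo2 and the other members was not tested.

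In the other comparisons 3 marker genes passed. The endothelial transporter Slco1a4 rose by 0.42 in Tg2576 TO901317 relative to Tg2576 vehicle (adjusted p = 0.0250). In Tg2576 TO901317 relative to wild-type vehicle Slc4a4 fell by 0.29 (adjusted p = 0.000934) and the neuropeptide gene Npy, which interneurons and stimulated granule cells make, fell by 0.55 (adjusted p = 0.00688). The interneuron list that holds Npy was mixed in that comparison, with 5 of 8 genes below 0 and a median of -0.03. Across animals with group means removed, none of 112 correlations between a member and the score of a marker list passed (smallest adjusted p = 0.121 for r and 0.0792 for rho). The closest were those of Neurod1 with the further granule cell genes, at r = 0.55 (rho 0.53, permutation p = 0.00167), and of Prox1 with the genes of immature granule cells, at r = 0.55 (rho 0.55, permutation p = 0.00374). Neurod1 followed the lists of CA1 and of CA2 and CA3 nearly as closely, at r = 0.51 (rho 0.54, permutation p = 0.00479) and 0.46 (rho 0.51, permutation p = 0.00947), and it ran against the striatal list at -0.47 (rho -0.43, permutation p = 0.00847). C1ql2 and Trpc6 correlated with the further granule cell genes at 0.49 each (rho 0.48 and 0.55, permutation p = 0.00697 and 0.00972). With that list Lct stood at 0.41, Tdo2 at 0.18, Dsp at -0.03, Calb1 at -0.07 and Prox1 at -0.20. Dsp correlated with the thalamic genes at 0.54, which dropped to 0.30 without the 2 farthest arrays. Lct ran against the interneuron list at -0.48 (rho -0.46, permutation p = 0.00722).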

How the data were processed

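Total RNA of 33 right hippocampi was labelled with biotin and hybridised to 1 array each, per the labels' protocols. The deposited file holds linear array intensity, computed by the authors with MAS5, per the submitters' processing notes. The MAS5 version was not given in the sources used here, nor were its settings. With 2 percent trimmed from both ends, every array had a mean signal of 99.97. Of 45101 probe sets 64 are controls and were left out, 34945 were annotated to 1 gene and 932 to several, by the platform annotation, which can be old. No scan dates were used.

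Groups came from the labels. Tests used limma 3.58.1 in R 4.3.3 on log2(signal + 16), a scale on which fold changes of dim genes are understated. The 40 percent of probe sets with the lowest means were dropped, which left 27022. All 33 arrays entered 1 fit with 1 mean per group (lmFit, contrasts, eBayes with trend and robust), and p-values were two-sided and adjusted by Benjamini-Hochberg over 27022 probe sets with a limit of 0.05. The members and lists were chosen with earlier results of these data known. The named genes are all members, the 10 probe sets of highest and the 5 of lowest r with Tdo2 and with the mean profile of the other members, and from each list up to 3 members that passed or else the 1 of smallest p. Correlations (numpy 2.4.6, scipy 1.17.1) used the brightest probe set of each member and 100000 permutations within groups, two-sided.

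On simulated data for Tg2576 vehicle minus wild-type vehicle, with 200 of 27022 probe sets changed, the fit recovered 21.5% of changes of 0.25 on the log2 scale, 82.1% of those of 0.5 and 98.5% of those of 1, and 3.98% of its calls were false. The simulated noise was independent and normal, with 1 SD per probe set in all groups. The wider spread of the members in Tg2576 vehicle was not part of it. Alternatives covered the pseudocount, filter, normalization, probe set rule, arrays, covariate, variance model and replicate number. Promoter sequences are from RefSeq, assembly GRCm38.p6.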

Additional observations from a re-analysis of the deposited data

How the results depend on the processing

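The number of member probe sets that passed stayed at 1, 0 and 0 in the comparisons of Tg2576 vehicle with wild-type vehicle, of Tg2576 TO901317 with Tg2576 vehicle and of Tg2576 TO901317 with wild-type vehicle under every alternative run, each array left out in turn included. The difference of Tdo2 1419093_at for Tg2576 vehicle minus wild-type vehicle lay between -0.84 and -0.70 when arrays were left out singly, and between -1.02 (pseudocount 1) and -0.41 (mean of the probe sets) over all alternatives, with adjusted p of 0.000296 to 0.0368. Array weights, chosen after seeing the data, gave -0.82 (adjusted p = 0.00183).

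Counts over all probe sets moved more, and the cause was not tested. The 43 calls of the genotype comparison became 25 with only the 2 groups in the fit and 72 with the array median as covariate, and 25 (without wild-type vehicle replicate 3) to 58 with single arrays left out. The 38 calls of the drug comparison became 92 with the array median, 9 without Tg2576 vehicle replicates 3 and 4, and 14 to 51 with single arrays left out, with 14 to 25 calls without Tg2576 vehicle replicates 3 or 9 or Tg2576 TO901317 replicates 1, 5, 6, 9 or 10. The 39 calls of treated Tg2576 against wild-type vehicle became 68 with the array median, 86 with array weights, and 25 (without wild-type vehicle replicate 1 or 2) to 61 (without Tg2576 TO901317 replicate 11) with single arrays left out.

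Signs turned only where differences were near 0 and did not pass. The drug difference within Tg2576 of Prox1 1437894_at became 0.18 with the mean of the probe sets and ranged from -0.10 to 0.0275 with single arrays left out. Dsp 1427610_at became 0.0070 (genotype) and -0.0744 (drug) without Tg2576 vehicle replicates 3 and 4, and its drug difference ranged from -0.0143 to 0.12 with single arrays left out. The ranges so obtained were -0.0319 to 0.11 for C1ql2 (genotype), and, for treated Tg2576 minus wild-type vehicle, -0.0010 to 0.0763 for Prox1 1421336_at and -0.0075 to 0.0470 for Trpc6. The r of Tdo2 with Prox1 became 0.11 with the mean of the probe sets and ranged from -0.23 to 0.0738, and that with Trpc6 from -0.0148 to 0.16, turned in both cases by Tg2576 vehicle replicate 10.

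Same-numbered animals were not shown to be paired: their deviations correlated at -0.15 to 0.23, -0.04 to 0.17 and -0.03 to 0.26, with 2, 7 and 4 of 11 pairs over 0.1. With the replicate number as a block, Tdo2 differed by -0.77 (adjusted p = 0.00386), the 3 counts of calls were 50, 38 and 42, and the r of Tdo2 with Neurod1 1426412_at was 0.64 (adjusted p = 0.00476, permutation within groups). The permutations did not allow for the block terms removed beforehand, so this p for r is too small and is not read as a pass. Without the block the r with Neurod1 1426412_at was 0.34, and that with Neurod1 1426413_at was -0.13. The fit left no member call other than that of Tdo2.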
